A study of Mus musculus with 4 samples.

Results

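The 10 genes described here form the core of the G1 cell cycle machinery: the D-type cyclin genes Ccnd1, Ccnd2 and Ccnd3, the E-type cyclin genes Ccne1 and Ccne2, the cyclin-dependent kinase genes Cdk2, Cdk4 and Cdk6, the kinase inhibitor gene Cdkn1b and the retinoblastoma gene Rb1. Every array probe set whose only annotated gene symbol is one of these names was taken, which gave 28 of the 34958 single-symbol probe sets. Values are log2 summaries made with RMA, and 23 of the 28 probe sets, at least 1 for each of the 10 genes, reached 6.05 (the median of all values) on at least 1 array and were compared, as were 21097 probe sets in all. The other 5 (2 of Ccnd2 and 1 each of Ccnd3, Cdk2 and Rb1) read between 2.96 and 5.02 on all arrays and are not interpreted.

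The cells were murine embryonic stem cells (CM7/1) that carried Hey1 or Hey2, transcriptional repressors downstream of Notch, for overexpression. The arrays were labelled Hey1 induced and Hey2 induced, with 1000 ng/ml doxycycline for 48 h, and Hey1 uninduced and Hey2 uninduced, the controls of the same lines. Each group had 1 array, so a line's difference rests on a single pair of arrays with no replicate, carries no p-value, and is only as precise as so few arrays allow. No array of doxycycline-treated cells without an introduced Hey gene was among them, so doxycycline and the factors cannot be told apart. Whether each line is a single clone, and whether the arrays came from separate cultures, was not given in the sources used here.

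At its own probe set Hey1 read 6.51 in the Hey1 line labelled induced and 6.73 in its uninduced cells. This difference of -0.23 compares with a scaled median absolute deviation of 0.16 over all probe sets in that line. In the Hey2 line the Hey1 probe set was also lower, at 6.25 against 6.72. Hey2 at its own read 4.34 in the Hey2 line labelled induced and 4.25 in its uninduced cells. The Hey2 probe set lay below the level filter on all 4 arrays and is not interpreted. The Hey1 probe set thus showed no rise in the cells labelled induced of either line, and the Hey2 probe set is not read either way. Whether these probe sets cover the introduced copies was not tested, and the induced arrays are named by their labels throughout. All 5 embryonic stem cell markers checked (Pou5f1, Sox2, Nanog, Zfp42 and Dppa5a) were above the level filter on all 4 arrays. Of 6 fibroblast markers, 2 reached the filter on some arrays (Col1a2 and Thy1), as did 1 of 5 cardiomyocyte markers (Myh6), and none did so on all 4. The log2 summed signal of the fibroblast markers was 8.69 in the Hey1 line labelled induced against 8.37 uninduced, and 7.95 against 8.07 in the Hey2 line. For the cardiomyocyte markers it was 8.10 against 7.96 and 8.04 against 7.64, and for the stem cell markers it lay between 16.16 and 16.25 on all arrays. The part of these signals in the results below was not tested.

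In the textbook order of G1, growth signals raise the D-type cyclins, which activate Cdk4 and Cdk6. These kinases begin the phosphorylation of the retinoblastoma protein, a brake on the E2F transcription factors, and cyclin E with Cdk2 completes it, so that S phase genes are expressed. The protein p27, made from Cdkn1b, binds and restrains the cyclin-kinase pairs. Mouse embryonic stem cells are known for a short G1 with active cyclin E and Cdk2 and a largely phosphorylated retinoblastoma protein, and the pair of cyclin D3 and Cdk6 has been described as active in them.

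In the Hey2 line the cyclin D1 gene was lower in the cells labelled induced, with all 3 of its probe sets at least 1.5-fold lower, and no other member probe set reached 1.5-fold in either line. In the Hey1 line 0 of 23 member probe sets were 1.5-fold lower and 0 were 1.5-fold higher, where 0.64% and 1.59% of all probe sets compared were. In the Hey2 line 3 of 23 were 1.5-fold lower and 0 were 1.5-fold higher, where 2.18% and 3.78% of all were. The 3 probe sets below the threshold read 1 gene and are not 3 independent observations. At 2-fold, 0 members were past the threshold in both lines, where 0.384% of all probe sets were in the Hey1 line, as were 1.01% in the Hey2 line.

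The median log2 difference over the 23 member probe sets was -0.13 in the Hey2 line, where 17 lay below 0 and 6 above. It was -0.02 in the Hey1 line, where 13 lay below 0 and 10 above, beside -0.01 over all probe sets compared in each line. Of all 21097 probe sets compared, the Hey2 line had 11107 below 0 and the Hey1 line had 11176. Probe sets that read the same gene, such as the 3 of Ccnd1 and the 3 of Cdk4, are not independent. The member counts are thus a description only. The scaled median absolute deviation of the difference over all probe sets was 0.23 for the Hey2 line and 0.16 for the Hey1 line. The sign was the same in both lines for 17 of 23 member probe sets, and for 61.9% of all probe sets compared. In bulk RNA, fewer cells in a phase of the cycle and less RNA per cell cannot be told apart.

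**Figure D1:**
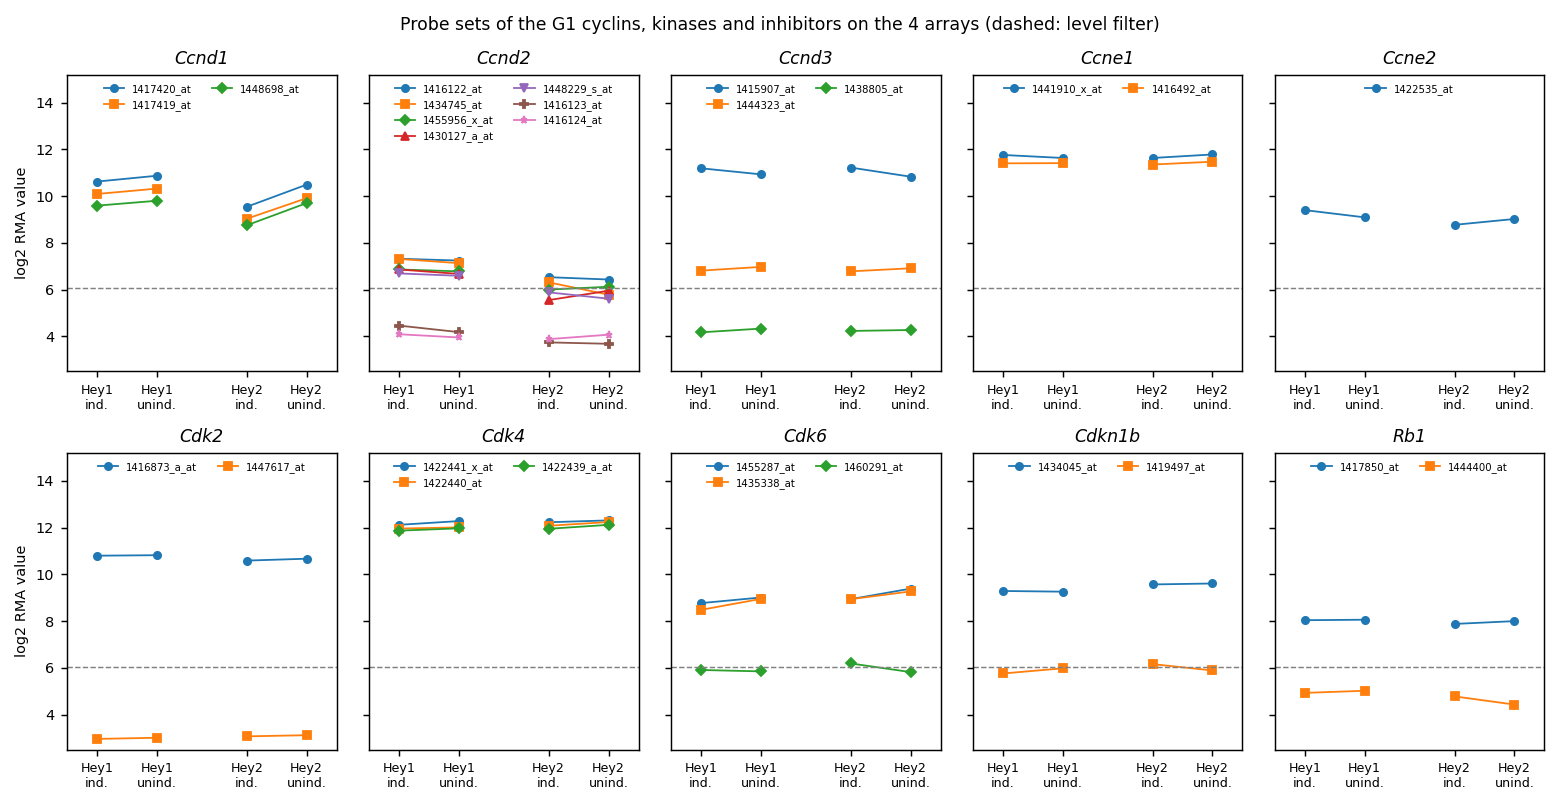
Log2 RMA values (vertical axis) of all 28 probe sets on the 4 arrays (horizontal axis), with 1 panel per gene, lines joining the arrays labelled induced and uninduced of each line, and the level filter of 6.05 dashed. The 3 probe sets of Ccnd1 slope most in the Hey2 line, and the 5 higher probe sets of Ccnd2 are lower on both Hey2-line arrays than on both Hey1-line arrays. Of those 5, 1430127_a_at and 1448229_s_at reach the filter only on the Hey1-line arrays.

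Ccnd1 encodes cyclin D1, which couples growth factor signals to Cdk4 and Cdk6. Its probe set 1417420_at read 9.54 in the Hey2 line labelled induced and 10.49 in its uninduced cells, and 10.62 in the Hey1 line labelled induced and 10.87 in its uninduced cells. Probe set 1417419_at read 9.03 and 9.91 in the Hey2 line (labelled induced, then uninduced) and 10.09 and 10.32 in the Hey1 line, in the same order. Probe set 1448698_at read 8.75 and 9.70 in the Hey2 line and 9.59 and 9.80 in the Hey1 line. In each probe set the Hey2 line labelled induced was the lowest of the 4 arrays and the uninduced Hey1 line the highest.

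The Ccnd1 differences were -0.95, -0.89 and -0.95 in the Hey2 line, or 1.93-fold, 1.85-fold and 1.94-fold lower. In that line 53, 77 and 51 of the 21097 probe sets compared lay at least as far below 0. In the Hey1 line the differences were -0.25, -0.23 and -0.21, or 1.19-fold, 1.17-fold and 1.15-fold lower, and 1744, 2125 and 2571 probe sets lay at least as far below 0. The Hey2-line difference minus the Hey1-line difference was -0.70, -0.66 and -0.75 in log2 units, a comparison that uses every array and was not tested.

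The size of the Ccnd1 difference in the Hey1 line depended on the uninduced array it was set against. Minus the uninduced Hey2 array, the Hey1 line labelled induced had differences of 0.13, 0.18 and -0.11, so that 2 of the 3 probe sets turned positive. Minus the uninduced Hey1 array, the Hey2 line labelled induced had -1.33, -1.29 and -1.05, lower in all 3 probe sets with either reference. The 3' minus 5' signal of control transcripts, a sign of RNA quality, also moved in the Hey2 line for some of them. For Tfrc it was 0.96 in cells labelled induced against 0.67 in uninduced cells, and for Pcx 1.56 against 1.33. It differed less for Actb (0.42 against 0.39) and Gapdh (0.03 against 0.01). In the Hey1 line the values were 0.84 against 0.95 for Tfrc and 1.43 against 1.38 for Pcx. There Actb had 0.51 against 0.48 and Gapdh 0.04 against 0.04. The part of RNA quality in the Ccnd1 difference was not tested.

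Ccnd2, the cyclin D2 gene, was lower in the Hey2 line than in the Hey1 line on both pairs of arrays. Probe set 1416122_at read 6.53 in the Hey2 line labelled induced and 6.43 in its uninduced cells, and 7.32 in the Hey1 line labelled induced and 7.24 in its uninduced cells. Probe set 1434745_at read 6.31 and 5.78 in the Hey2 line and 7.31 and 7.13 in the Hey1 line, labelled induced first. All 5 compared probe sets read less on both Hey2-line arrays than on both Hey1-line arrays. Of these, 1430127_a_at and 1448229_s_at reached the level filter only on the Hey1-line arrays, where they read more. The 5 also read the same gene, so their agreement is a description only.

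Within the lines the Ccnd2 probe sets disagreed with each other. In the Hey1 line all 5 were slightly higher in cells labelled induced, by 0.08 to 0.19. In the Hey2 line 3 were higher and 2 lower, between -0.40 for 1430127_a_at and 0.53 for 1434745_at. The difference at 1434745_at, 1.45-fold, starts from a value of 5.78 that lies below the level filter, so its size is uncertain. The suffixes of 1448229_s_at and 1455956_x_at mark probes that may read other transcripts, and these probe sets had 0.27 and -0.12 in the Hey2 line.

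Ccnd3 encodes cyclin D3. Its highest probe set, 1415907_at, read 11.22 in the Hey2 line labelled induced against 10.83 in its uninduced cells, and 11.19 in the Hey1 line labelled induced against 10.93 in its uninduced cells. Both arrays labelled induced were above both uninduced arrays, by 1.32-fold in the Hey2 line, with 1.19-fold in the Hey1 line, under the 1.5-fold threshold. The order held with the other line's uninduced array, at 0.29 for the Hey2 line and 0.36 for the Hey1 line. The second probe set, 1444323_at, was lower by 0.13 in the Hey2 line, with 0.16 in the Hey1 line (6.78 against 6.91 and 6.81 against 6.97), opposite in sign to the first.

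**Figure D2:**
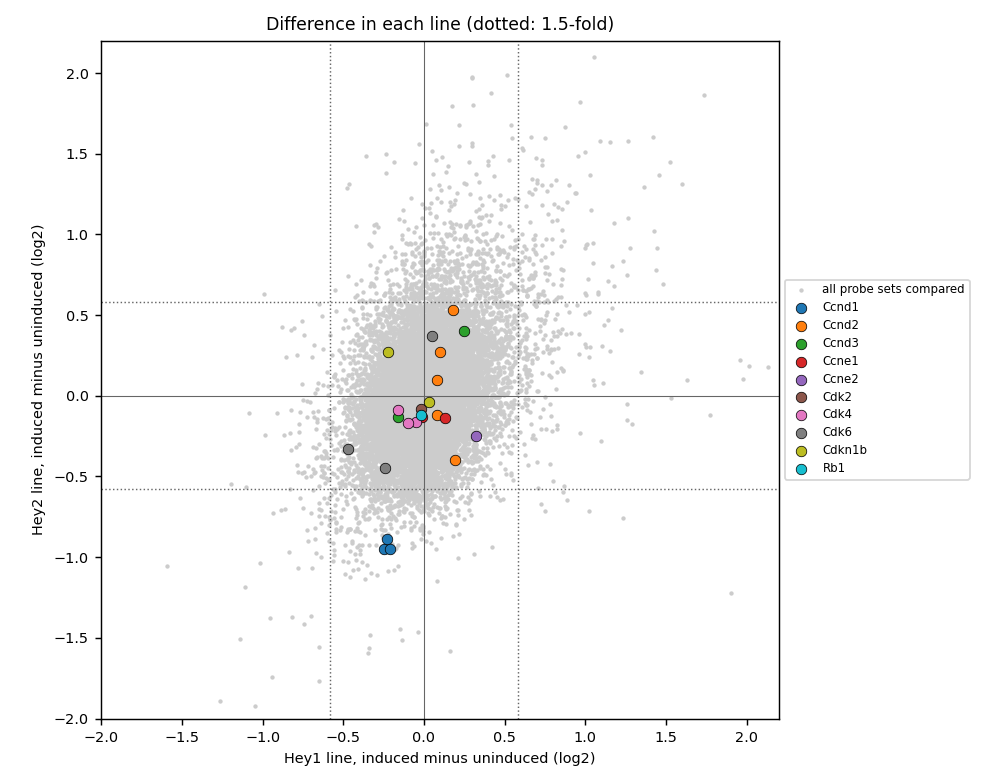
Log2 difference, labelled induced minus uninduced, in the Hey1 line (horizontal) and the Hey2 line (vertical) for 21097 probe sets (grey) and the 23 member probe sets (coloured by gene), with dotted lines at 1.5-fold; 11 grey points lie outside the drawn range. The Ccnd1 points are the only members past a dotted line, at -0.95 to -0.89 in the Hey2 line.

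The E-type cyclin genes differed little or in opposite directions. Ccne1, whose cyclin E1 activates Cdk2, read 11.35 in the Hey2 line labelled induced and 11.47 in its uninduced cells at 1416492_at, and 11.40 and 11.41 in the Hey1 line. Its other probe set, 1441910_x_at, had differences of -0.14 in the Hey2 line, with 0.13 in the Hey1 line, and it may read other transcripts. The values of both probe sets spanned at most 0.15 over the 4 arrays.

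Ccne2, the cyclin E2 gene, read 8.77 in the Hey2 line labelled induced and 9.02 in its uninduced cells, and 9.40 in the Hey1 line labelled induced and 9.09 in its uninduced cells. It was lower in the Hey2 line by 1.19-fold and higher in the Hey1 line by 1.25-fold, and has a single probe set. Between the cells labelled induced it was lower in the Hey2 line than in the Hey1 line by 1.55-fold. The directions held with the other uninduced array, at -0.31 for the Hey2 line and 0.38 for the Hey1 line.

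Among the kinase genes, Cdk6 was lower in the cells labelled induced of both lines at its 2 higher probe sets, while Cdk4 and Cdk2 differed little. Probe set 1455287_at of Cdk6 read 8.94 in the Hey2 line labelled induced and 9.39 in its uninduced cells, and 8.77 in the Hey1 line labelled induced and 9.01 in its uninduced cells. Probe set 1435338_at read 8.94 and 9.27 in the Hey2 line and 8.48 and 8.95 in the Hey1 line. The differences were -0.45 and -0.33 in the Hey2 line and -0.24 and -0.47 in the Hey1 line, or between 1.18-fold and 1.38-fold lower. At 1435338_at, 284 of the 21097 probe sets compared lay at least as far below 0 in the Hey1 line.

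The third Cdk6 probe set, 1460291_at, reached the filter only in the Hey2 line labelled induced (6.19) and was higher there by 0.37. Both higher Cdk6 probe sets read more in the uninduced Hey2 line than in the uninduced Hey1 line, by 0.38 and 0.32. Minus the uninduced array of the other line, their differences were therefore -0.07 and -0.01 for the Hey2 line and -0.62 and -0.79 for the Hey1 line, at 1455287_at and 1435338_at. The size of the Cdk6 difference in either line thus rested on which uninduced array was used.

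Cdk4, the other partner of the D-type cyclins, was lower by 0.09 to 0.17 in the Hey2 line and by 0.05 to 0.16 in the Hey1 line at all 3 probe sets. At 1422439_a_at it read 11.95 in the Hey2 line labelled induced and 12.12 in its uninduced cells, and 11.87 in the Hey1 line labelled induced and 11.97 in its uninduced cells. These differences were no larger than the scaled median absolute deviation over all probe sets in each line. Cdk2, the partner of the E-type cyclins, read 10.59 and 10.67 in the Hey2 line and 10.80 and 10.82 in the Hey1 line at 1416873_a_at, labelled induced first. The 4 values of that Cdk2 probe set spanned 0.23.

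The promoters of Cdk4 and Cdk6 are shown because they hold the E-box letters CACGTG, an element that Hey proteins are known to bind and that the Myc and Max pair, known activators of Cdk4, bind as well. Each is the 250 bases upstream of the RefSeq start, 5′ to 3′ on the gene's strand (GRCm38.p6, plus strand for both), at chr10:127063285-127063534 for Cdk4 and chr5:3343643-3343892 for Cdk6, with the matches in capitals.
Cdk4: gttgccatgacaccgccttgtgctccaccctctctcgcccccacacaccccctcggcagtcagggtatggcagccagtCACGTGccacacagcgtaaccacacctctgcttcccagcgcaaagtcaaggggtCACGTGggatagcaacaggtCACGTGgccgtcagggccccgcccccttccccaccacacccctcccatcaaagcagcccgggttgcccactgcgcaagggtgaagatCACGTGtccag
Cdk6: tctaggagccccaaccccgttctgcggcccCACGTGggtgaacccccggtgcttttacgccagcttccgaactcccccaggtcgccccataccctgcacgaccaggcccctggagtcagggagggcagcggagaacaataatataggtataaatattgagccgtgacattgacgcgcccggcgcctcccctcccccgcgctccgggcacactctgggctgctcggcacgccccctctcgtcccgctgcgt
The Cdk4 window held 4 matches, which begin 172, 118, 98 and 11 bases before the start, and the Cdk6 window held 1, which begins 220 bases before it. CACGTG reads the same on both strands, and it stood in 6.02% of the 32851 promoter windows of the table, 7 of which held 4 or more matches. Of the 10 genes, 6 matched the table by symbol, with 7 windows, and the other 5 windows (2 of Ccnd3 and 1 each of Ccne1, Cdk2 and Cdkn1b) held no CACGTG. Ccnd1, Ccnd2, Ccne2 and Rb1 had no window in that table, so their promoters were not searched. A match is a description of the letters and was not tested for binding. The letters CACGCG, which Hey proteins are also known to bind, were searched on both strands and stood in 1 of the 7 windows, that of Cdkn1b, and in 7.62% of all windows.

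Cdkn1b, which encodes the inhibitor p27, did not differ at its higher probe set within either line beyond the spread of all probe sets. Probe set 1434045_at read 9.57 in the Hey2 line labelled induced and 9.61 in its uninduced cells, and 9.29 in the Hey1 line labelled induced and 9.26 in its uninduced cells. Both Hey2-line values lay above both Hey1-line values, by 1.27-fold between the uninduced arrays and 1.21-fold between the arrays labelled induced. The second probe set, 1419497_at, was near the level filter (5.76 to 6.16) and had opposite differences of 0.27 in the Hey2 line, with -0.22 in the Hey1 line.

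Rb1, the gene of the retinoblastoma protein, had 1 compared probe set. It read 7.88 in the Hey2 line labelled induced and 8.0 in its uninduced cells, and 8.04 in the Hey1 line labelled induced and 8.06 in its uninduced cells. The 4 values spanned 0.18, less than the spread of the Hey2-line difference over all probe sets.

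With the uninduced arrays exchanged between the lines, 8 of the 23 member probe sets (3 of Ccnd1 and 5 of Ccnd2) were lower by 1.5-fold or more in the Hey2 line and 0 were higher, where 2.82% and 4.63% of all probe sets were. For the Hey1 line 5 were 1.5-fold higher (all of Ccnd2) and 2 lower (both of Cdk6), where 7.24% and 5.18% of all were. These counts hold the difference between the lines as well as that of induction. Of the Ccnd2 probe sets, 1430127_a_at and 1448229_s_at reached the level filter only on the Hey1-line arrays, where they read more. The 5 Ccnd2 probe sets also read the same gene, so the counts are a description only.

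**Figure D3:**
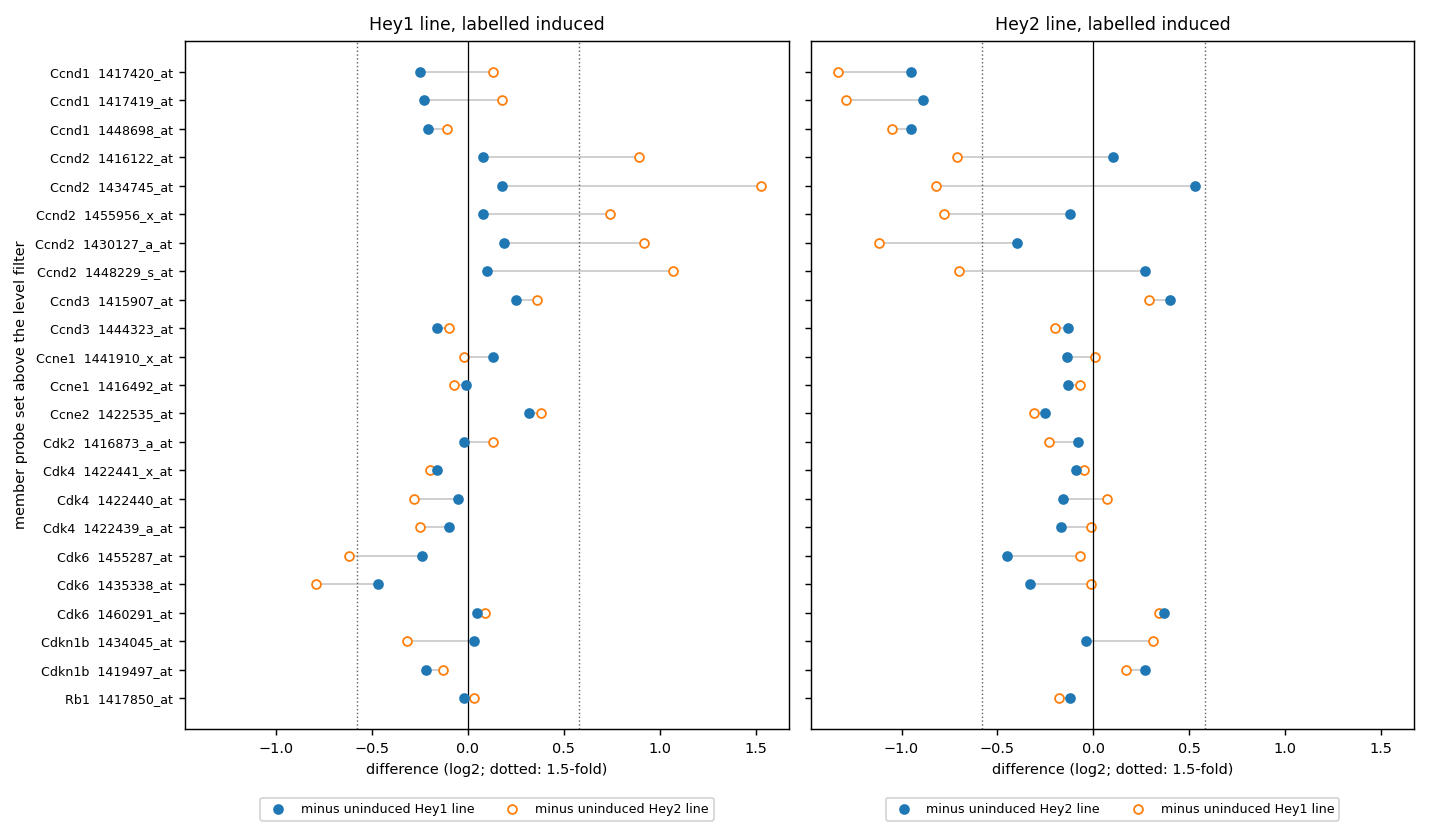
Log2 difference of the array labelled induced for each of the 23 compared member probe sets (rows), minus the uninduced array of its own line (filled) and of the other line (open), in the Hey1 line (left) and the Hey2 line (right), with dotted lines at 1.5-fold. Open and filled points of Ccnd2 and of the 2 higher Cdk6 probe sets lie apart, while all Ccnd1 points in the Hey2 line lie between -1.33 and -0.89.

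The response common to both lines was tested with limma over all 21097 probe sets, blocked by line. This fit takes the inductions of Hey1 and of Hey2 for repeats of each other. No member passed an adjusted p of 0.05, and neither did any probe set in either direction (0% of all, higher or lower). The adjusted p by limma was between 0.368 and 0.989 for the members and at least 0.321 for all probe sets. At an unadjusted p of 0.05, 7 of 23 member probe sets and 11.9% of all probe sets were called, the 7 being 3 of Ccnd1, 2 of Cdk6 and 1 each of Ccnd2 and Ccnd3.

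The mean difference of the 2 lines was -0.60 ± 0.19 (SE) for Ccnd1 at 1417420_at, with an adjusted p of 0.4 by limma and lower values in both lines. It was -0.40 ± 0.09 for Cdk6 at 1435338_at (adjusted p = 0.368 by limma) and 0.32 ± 0.09 for Ccnd3 at 1415907_at (adjusted p = 0.382 by limma), each with the same sign in both lines. The fit left 1 residual degree of freedom, so a p that misses the threshold does not show that these genes were the same. Without the Hey2 array labelled induced, the Ccnd1 value at 1417420_at was -0.06, and without the Hey1 array labelled induced it was -1.14. The Cdk6 value at 1435338_at was -0.63 without the Hey2 array labelled induced, -0.17 without the Hey1 array labelled induced and -0.24 without the uninduced Hey2 array. The Ccnd3 value at 1415907_at lay between 0.27 and 0.38 with any 1 array left out. Those values come from fits without the block, so they also hold the difference between the lines.

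The uninduced arrays of the lines, which show how far arrays differed with no induction, were set against each other in the same way. Of the 23 member probe sets, 5 were at least 1.5-fold lower in the uninduced Hey2 line than in the uninduced Hey1 line, and 0 were 1.5-fold higher, where 5.28% and 4.12% of all probe sets were. All 5 were probe sets of Ccnd2, and 2 of them, 1430127_a_at and 1448229_s_at, reached the level filter only on the Hey1-line arrays, where they read more, so the count is a description only. At 1416122_at, the probe set above the filter on all 4 arrays, Ccnd2 was 1.75-fold lower. One, 1434745_at, was 2.55-fold lower and the only member past 2-fold, where 1.98% of all probe sets were past it in either direction.

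The Ccnd2 differences between the uninduced arrays were -1.35 at 1434745_at, -0.97 at 1448229_s_at, -0.81 at 1416122_at, -0.72 at 1430127_a_at and -0.67 at 1455956_x_at. Between the cells labelled induced they were -0.99, -0.80, -0.79, -1.31 and -0.86 in the same order of probe sets. The values at 4 of these 5 probe sets lay below the level filter on at least 1 Hey2-line array, so the sizes are uncertain. Thy1, a fibroblast marker, was also lower in the Hey2 line. It read 5.51 against 7.13 in the uninduced cells and 5.73 against 7.80 in the cells labelled induced. The fibroblast markers did not all move this way. Col1a2 at 1450857_a_at read 6.27 against 6.04 uninduced and 5.89 against 6.13 labelled induced, in the same order of lines. Dcn at 1449368_at, below the level filter on all arrays, read 5.88 against 5.20 and 5.77 against 5.27. The part of these markers in the Ccnd2 difference was not tested.

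Other genes of the pathway were taken from a list of 41 genes in 7 roles. Of these, 40 had a single-symbol probe set and 39 passed the level filter, with 74 probe sets. In the Hey1 line 0 of the 74 were 1.5-fold higher or lower, where 1.59% and 0.64% of all probe sets were. In the Hey2 line 1 was 1.5-fold higher and 0 were lower, where 3.78% and 2.18% of all were. The medians were 0.01 (Hey2 line) and -0.04 (Hey1 line), beside -0.01 over all probe sets in each line, and 0 of the 74 passed limma's common-response test at an adjusted p of 0.05 (4 at an unadjusted p of 0.05, as were 11.9% of all probe sets).

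The probe set past 1.5-fold was 1455790_at of E2f2, an E2F transcription factor that the retinoblastoma protein restrains. It read 7.10 in the Hey2 line labelled induced and 6.13 in its uninduced cells, and 6.82 in the Hey1 line labelled induced and 6.71 in its uninduced cells. The other E2f2 probe set, 1436434_at, had -0.07 in each line, so the gene's probe sets disagreed. Over the E2F and DP factors the median of 17 probe sets was 0.06 in the Hey2 line, with -0.07 in the Hey1 line.

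Among the inhibitor genes, Cdkn1c, which encodes p57, was lower by 0.40 in the Hey2 line (7.01 against 7.41) and by 0.31 in the Hey1 line (7.06 against 7.37). The 7 probe sets of the INK4 and Cip/Kip genes had medians of -0.01 in the Hey2 line, with -0.07 in the Hey1 line. Rbl1, which encodes the pocket protein p107, had 0.29 and 0.21 in the Hey2 line and -0.03 and 0.15 in the Hey1 line at its 2 compared probe sets, 1424156_at and 1425166_at.

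The 10 compared probe sets of the upstream factors read 4 genes (Myc, Mycn, Foxo1 and Foxo3) and are not independent. Of the 10, 9 lay below 0 in the Hey2 line (median -0.21), as did 11107 of all 21097 probe sets. For the Hey1 line 9 lay below 0 (median -0.14), as did 11176 of all. Foxo3, a forkhead factor known to activate Cdkn1b, had the largest of these differences. At 1434831_a_at it read 9.08 in the Hey2 line labelled induced and 9.55 in its uninduced cells, and 8.91 in the Hey1 line labelled induced and 9.35 in its uninduced cells. These 10 probe sets were higher in the uninduced Hey2 line than in the uninduced Hey1 line, by 0.08 to 0.53, as were 10908 of all 21097 by any amount.

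The S phase target genes of E2F had medians of -0.01 in the Hey2 line, with -0.06 in the Hey1 line over 11 probe sets. Their widest difference was that of Mybl2, a transcription factor gene of S phase and mitosis, which was higher by 0.38 in the Hey2 line at 1417656_at (11.77 against 11.39) and by 0.10 in the Hey1 line (11.08 against 10.98). Its other probe set had -0.01 and -0.07. For the ubiquitin ligase parts, the 14 probe sets had medians of -0.01 in the Hey2 line, with 0.09 in the Hey1 line, and Rbx1, the RING subunit that recruits the ubiquitin-charged enzyme, had -0.38 and -0.23. Mnat1, the assembly factor of the kinase that activates cyclin-dependent kinases, was higher by 0.09 in each line.

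**Figure D4:**
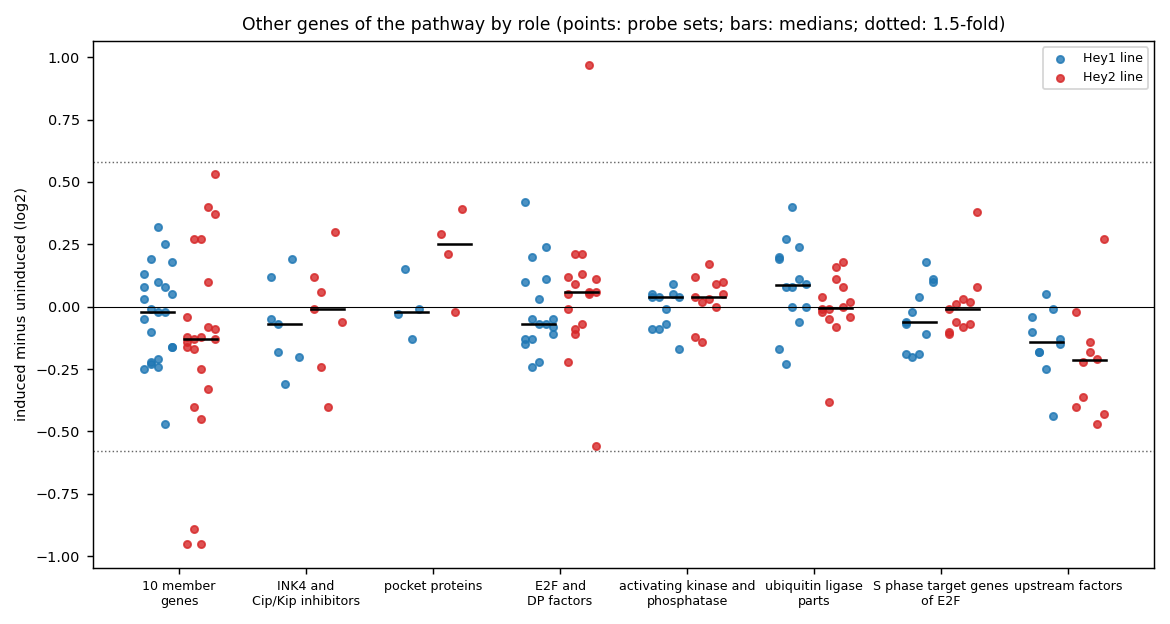
Log2 difference, labelled induced minus uninduced (vertical axis), of each compared probe set of the 10 member genes (left) and of 7 role groups of other pathway genes, in the Hey1 line (blue) and the Hey2 line (red), with medians as bars and dotted lines at 1.5-fold. Apart from the 3 Ccnd1 probe sets, the single point past a dotted line is E2f2 in the Hey2 line at 0.97.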

How the data were processed

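RNA of 4 samples, 1 per group by their titles, was read on single-colour Affymetrix arrays. The deposited values, 1 per probe set, come from RMA on the log2 scale per the submitters' processing notes, and the log2 scale was read from their range (2.67 to 15.2). RMA equalises the distributions and so hides any shift shared by all genes. The build, the chip description file and the RMA version were not given in the sources used here. Sequencing depth has no counterpart.

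The platform annotation gave 34958 of 45101 probe sets a single symbol, 932 several and 9211 none. Each single-symbol probe set stood alone, and 21097 passed the filter. Differences are log2 values labelled induced minus uninduced. For the common response, limma 3.58.1 in R 4.3.3 was used (line as a block, Benjamini-Hochberg over all probe sets). In simulated data this fit missed most changes of 1 log2 unit or smaller. Tables and figures used Python 3.11.15, pandas 2.3.3 and matplotlib 3.10.9. The p-values of limma reflect the spread of these arrays alone, which may be technical. Alternatives were other level filters, probe set rules, scalings, references and limma settings. The members and lists were chosen with earlier results of these data known. All member probe sets are named. Other pathway genes are named if past 1.5-fold in a line, otherwise 1 per role with the largest mean absolute difference.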

Additional observations from a re-analysis of the deposited data

Results flagged for a closer look

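The lines differed in direction at 3 member probe sets, with each line's difference at least as large as the scaled median absolute deviation of that line over all probe sets. The share of all probe sets that meet this rule was not counted, so whether 3 of 23 is many or few is not known. By sign alone, 17 of 23 member probe sets and 61.9% of all probe sets compared went the same way in both lines. The Hey2-line difference minus the Hey1-line difference was -0.57 for Ccne2 at 1422535_at, -0.59 for Ccnd2 at 1430127_a_at and 0.49 for Cdkn1b at 1419497_at. Each rests on 1 array per group, and the difference between the lines was not tested. The Ccnd2 and Cdkn1b probe sets lay near or below the level filter on several arrays, and the other compared probe set of Cdkn1b had -0.04 in the Hey2 line, with 0.03 for Hey1.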

How the results depend on the processing

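With an offset of 32 added to linear values, median centring or cyclic loess, the differences of the 23 compared member probe sets in both lines moved by less than the spread of all probe sets. A filter leaves a difference as it is: a stricter one at 8.31, the 75th percentile, kept 14 of the 23. Under these settings and with no filter, the 3 Ccnd1 probe sets stayed 1.5-fold lower in the Hey2 line. Cyclic loess put 1 member probe set, 1434745_at of Ccnd2, at 1.5-fold higher in the Hey2 line. With 1 probe set per gene, or each gene's probe sets averaged, the count lower in the Hey2 line was 1 (Ccnd1), since fewer values were counted. The uninduced array of the other line as the reference gave 8 member probe sets 1.5-fold lower in the Hey2 line, and 5 higher and 2 lower in the Hey1 line. The 8 and the 5 include 2 Ccnd2 probe sets that reached the filter only on the Hey1-line arrays. Between the uninduced arrays, 0 members were 1.5-fold lower with the stricter filter, which leaves out Ccnd2, and 1 with 1 probe set per gene.

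In the common response, limma with a trended and robust prior called 198 probe sets higher and 146 lower, and 0 members (the lowest adjusted p of a member by limma was then 0.0531, for Ccnd3). Leaving out 1 array at a time gave 0 to 1 probe sets higher and 0 lower, without the block. The Ccnd2 value at 1434745_at was 0.36 with all arrays and ranged from -0.32 to 1.03 when 1 array was left out. With no replicate block, that is without the line in the model, 0 probe sets were called and the Ccnd1 value at 1417420_at stayed at -0.60 (adjusted p = 1 by limma). No pairing by replicate number was possible, because each group has 1 array. With 1 array per group the counts in each line have no test, and signals near the filter limit what Ccnd2 and Cdkn1b can show.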
